A study of Mus musculus with 12 samples.

Results

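The 227 genes described here are those whose promoter was already methylated at 50% or more, on average, in the colon epithelium of control mice. They were chosen from the short-fragment libraries: of the 10027 genes with a value in all 6 of them, 227 (2.26%) had a mean over the 3 control mice at or above that level. Another 748 genes lay between 10% and 50%, and 9052 lay under 10%, so high promoter methylation was rare among the 10027 genes. The share was larger, 15.2%, among genes with a short-fragment control value but not in all 6 libraries. The 2.26% is therefore no estimate for all promoters of the tissue. Over both kinds of library the series lists 12098 genes. Because the control values chose the members, every comparison of induced with control mice in the short fragments is given as a description without a test, and tests are given for the long-fragment libraries alone.

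The study used reduced representation bisulfite sequencing, which cuts genomic DNA at CCGG sites with the enzyme MspI, keeps short pieces and reads unconverted cytosine as methylated. Epithelial cells were isolated from the colon of C57BL/6 mice. The 3 induced mice had Dnmt3b, a DNA methyltransferase that methylates previously unmethylated CpG sites, switched on by doxycycline (0.5 g/l in drinking water, changed every 3 days) for 3 months, and the 3 control mice had ordinary water to drink. Every animal gave 1 short-fragment (40 to 120 nt) and 1 long-fragment (120 to 220 nt) library, 12 in all. All 6 mice had a chow diet. The labels do not state the age or sex of the mice, whether the control mice carried the inducible transgene, or what drives it, so doxycycline and Dnmt3b induction cannot be told apart. A value is the mean methylation fraction of the CpGs of a gene's promoter, given here in percent. The files hold no read counts, so the depth behind each value is unknown. Each level is an average over all cells and both alleles of a sample, and a change in cell makeup cannot be told apart from a change within cells.

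CpG methylation near a transcription start is a lasting mark of silent genes. Most mammalian promoters lie in CpG islands, which stay unmethylated in normal tissue. The known exceptions include genes used only in germ cells, which are methylated in the body's other tissues from early development, and imprinted genes, where the allele from 1 parent is methylated. Promoters with few CpGs are often methylated in tissues that do not use the gene. DNMT3B and DNMT3A place new methyl groups, and DNMT1 copies them at cell division.

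The sequences below show the kinds of promoter among the members. Each is the stretch of 250 bases before the transcription start, printed 5′ to 3′ on the gene's strand, from RefSeq (GRCm38.p6), with every CpG in capitals. Kbtbd10 is CpG-poor and was full in control mice, Ddx4 and Mael are germ-cell genes, Aqp6 and Kremen2 were about equally methylated and unmethylated in control mice and gained the most or rose in libraries that played no part in the choice, and Igf2r and Psme1 showed no gain. The windows lie at chr2:69669870-69670119 (plus strand, Kbtbd10), chr13:112652311-112652560 (minus, Ddx4), chr1:166238745-166238994 (minus, Mael), chr15:99600950-99601199 (plus, Aqp6), chr17:23745830-23746079 (minus, Kremen2), chr17:12769707-12769956 (minus, Igf2r) and chr14:55578244-55578493 (plus, Psme1).
Kbtbd10: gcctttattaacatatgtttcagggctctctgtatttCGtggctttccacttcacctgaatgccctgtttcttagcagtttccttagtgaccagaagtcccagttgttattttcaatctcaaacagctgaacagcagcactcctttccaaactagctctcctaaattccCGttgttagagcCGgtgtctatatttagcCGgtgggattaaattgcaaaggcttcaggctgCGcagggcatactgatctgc
Ddx4: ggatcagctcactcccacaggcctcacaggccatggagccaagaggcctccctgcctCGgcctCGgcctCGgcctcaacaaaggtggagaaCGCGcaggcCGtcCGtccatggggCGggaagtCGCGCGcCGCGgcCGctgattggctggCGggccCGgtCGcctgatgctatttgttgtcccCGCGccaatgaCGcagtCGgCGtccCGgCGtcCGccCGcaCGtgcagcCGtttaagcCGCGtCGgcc
Mael: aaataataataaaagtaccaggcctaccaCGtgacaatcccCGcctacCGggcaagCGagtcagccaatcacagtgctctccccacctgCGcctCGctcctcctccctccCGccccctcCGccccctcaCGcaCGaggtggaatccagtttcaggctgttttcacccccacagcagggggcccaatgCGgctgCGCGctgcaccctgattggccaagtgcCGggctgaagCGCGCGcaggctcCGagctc
Aqp6: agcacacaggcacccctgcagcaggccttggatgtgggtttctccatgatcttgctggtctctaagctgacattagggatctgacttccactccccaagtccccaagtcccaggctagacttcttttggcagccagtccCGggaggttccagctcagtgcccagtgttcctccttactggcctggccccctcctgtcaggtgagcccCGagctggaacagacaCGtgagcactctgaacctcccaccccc
Kremen2: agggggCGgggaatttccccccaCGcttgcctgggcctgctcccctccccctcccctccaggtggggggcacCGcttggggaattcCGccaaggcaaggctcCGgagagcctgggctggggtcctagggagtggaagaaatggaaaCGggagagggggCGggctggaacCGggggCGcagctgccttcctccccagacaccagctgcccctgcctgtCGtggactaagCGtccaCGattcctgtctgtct
Igf2r: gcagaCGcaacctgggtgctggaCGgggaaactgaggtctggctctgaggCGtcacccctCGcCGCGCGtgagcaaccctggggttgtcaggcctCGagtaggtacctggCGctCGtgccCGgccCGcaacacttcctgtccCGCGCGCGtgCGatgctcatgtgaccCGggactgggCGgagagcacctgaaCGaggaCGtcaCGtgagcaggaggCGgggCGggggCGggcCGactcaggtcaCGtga
Psme1: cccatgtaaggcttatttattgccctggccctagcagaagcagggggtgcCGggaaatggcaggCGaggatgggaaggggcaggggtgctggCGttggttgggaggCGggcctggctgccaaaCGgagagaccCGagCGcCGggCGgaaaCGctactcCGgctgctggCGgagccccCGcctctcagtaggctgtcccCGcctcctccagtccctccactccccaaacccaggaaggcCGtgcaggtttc
Within these stretches Aqp6 has 3 CpGs, Kbtbd10 has 5, Kremen2 has 12, Psme1 has 15, Mael has 18, Igf2r has 27 and Ddx4 has 31. The sources used here do not give the promoter window that the authors averaged. The CpGs behind a measured value may lie partly or wholly outside the stretch shown.

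High methylation in control mice went mainly with RefSeq promoter windows that held few CpGs, which need not be the CpGs measured. A RefSeq window of 250 bases before to 50 after the start was found for 184 members (81.1%) and for 7977 (79.6%) of all genes measured. Members had a median of 8.25 CpGs per window (quartiles 5 and 16) against 23 (16 and 30) over all genes, and an observed-to-expected CpG ratio of 0.406 against 0.783. Fewer than 10 CpGs were present in 57.1% of the members' windows and in 8.57% of all. No CCGG site lay in 26.1% of the members' windows, against 9.11% of all, so measured CpGs may often lie outside the window. The window of 1700029I08Rik held 0 CpGs although the gene read 94.3% in control mice. Of genes with fewer than 5 CpGs in the window, 44 of 183 (24.0%) were members. That share was 61 of 501 (12.2%) at 5 to under 10 CpGs, 29 of 939 (3.09%) at 10 to under 15 and 26 of 1348 (1.93%) at 15 to under 20. It was 17 of 2917 (0.583%) at 20 to under 30 and 7 of 2089 (0.335%) at 30 or more. The 7 CpG-dense members were Hsf5, 2700081O15Rik, Camkk2, Fgd5, Ddx4, Igf2r and EG633640. They were picked out after their values were seen, and they split into 5 that reached 91.3% to 97.8% in induced mice and 2 that stood at 48.2% (Igf2r) and 49.4% (EG633640). Among members alone, CpG count had little linear relation to the control level (Pearson r -0.06, 184 genes) or to the gain (r -0.17), given as descriptions across genes of the same libraries.

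**Figure D1:**
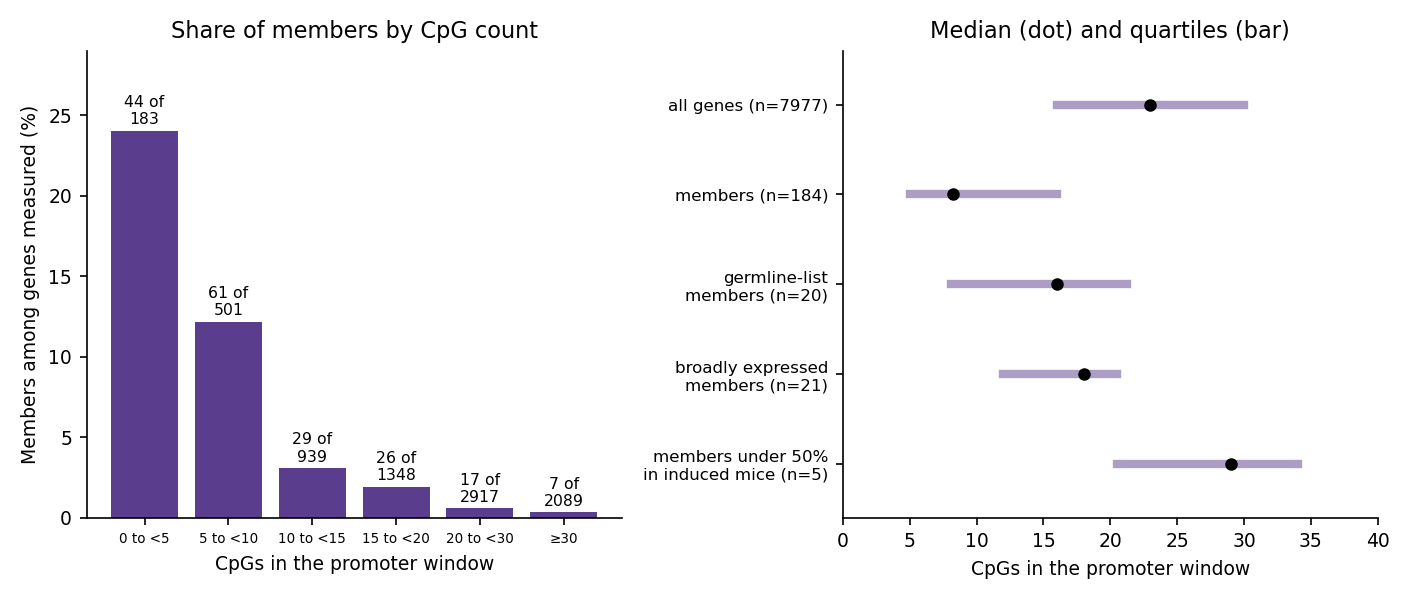
Left, percentage of genes that are members in each class of CpG count in the 300-base RefSeq window. The bars fall from 24.0% under 5 CpGs to 0.335% at 30 or more. Right, median (dot) and quartiles (bar) of the CpG count per window for all genes, members and 3 groups of members.

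Germ-cell genes were the most numerous of the hand-written gene lists among the members, name classes left aside. On a list of germline genes written from general knowledge, 44 were measured and 22 of them (50%) were members, against 2.26% of all genes. This list and those below were written with earlier results of these data known, so their shares are description only. A further list of genes of other tissues (secreted or structural proteins) had 5 members of 11 measured: Cpa1, Krt10, Krt76, Lhb and Tnni3. By contrast, none of 30 colon epithelium genes, none of 32 listed housekeeping genes and none of 15 genes of the methylation machinery was a member. The housekeeping list held only 40 names, and 23 members outside it were later grouped as broadly expressed. Of 39 imprinted genes 4 were members, of 22 blood cell genes 2 (Cd27 and Lat), and of 19 stromal, muscle and endothelial genes 1 (Eng). None of 64 X-linked genes with island promoters was a member, and their median control level was 23.3%. Among name classes, 4 of 6 genes named Krt (Krt10, Krt35, Krt76 and Krtdap, the last no keratin itself) and 5 of 19 protocadherins were members, against 2 of 176 zinc finger genes.

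The labelled cell type was checked at promoters of epithelial markers. Cdh1, Epcam, Cdx1 and Cdx2, which mark intestinal epithelium, were the 4 of 9 listed markers with short-fragment values, and their control means lay between 0% (Epcam) and 1.59% (Cdh1). Unmethylated promoters do not show that the genes were expressed. In short fragments the promoter of Dnmt3b itself lay between 3.64% and 3.97% in control mice and between 5.19% and 5.63% after induction. In long fragments it read 0% in 5 mice and 6.09% in induced mouse 1, and its expression was not measured here.

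In control mice the members averaged 75.9% ± 0.887 (SD, n = 3 mice) and in induced mice 88.2% ± 1.11, higher by 12.3 percentage points. The library means over members were 75.1%, 76.9% and 75.7% in control mice 1 to 3 and 87.1%, 88.2% and 89.3% in induced mice 1 to 3. All 3 induced libraries stood above all 3 control libraries. The median of the gains was 8.83 points, against 0.50 points over all genes. Over all genes listed, the library means were 5.34%, 4.53% and 5.10% in control mice and 16.8%, 17.9% and 19.4% in induced mice. The medians therefore do not show that members gained more than other genes on average. The median level over members was 79.2% in control and 91.3% in induced mice. Individual differences ran from -23.6 to 41.1 points, with 197 members higher and 30 lower in mean. In 111 members (48.9%) every induced mouse was above every control mouse, against 39.5% of all genes. In 1 member every induced mouse was below, against 0.908%, and 115 overlapped. That member was Tmem182, a muscle membrane protein gene, which read 95.4%, 95.7% and 97.0% in control mice against 91.0%, 94.5% and 94.0%. These counts are description only, since the control values in them chose the members.

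**Figure D2:**
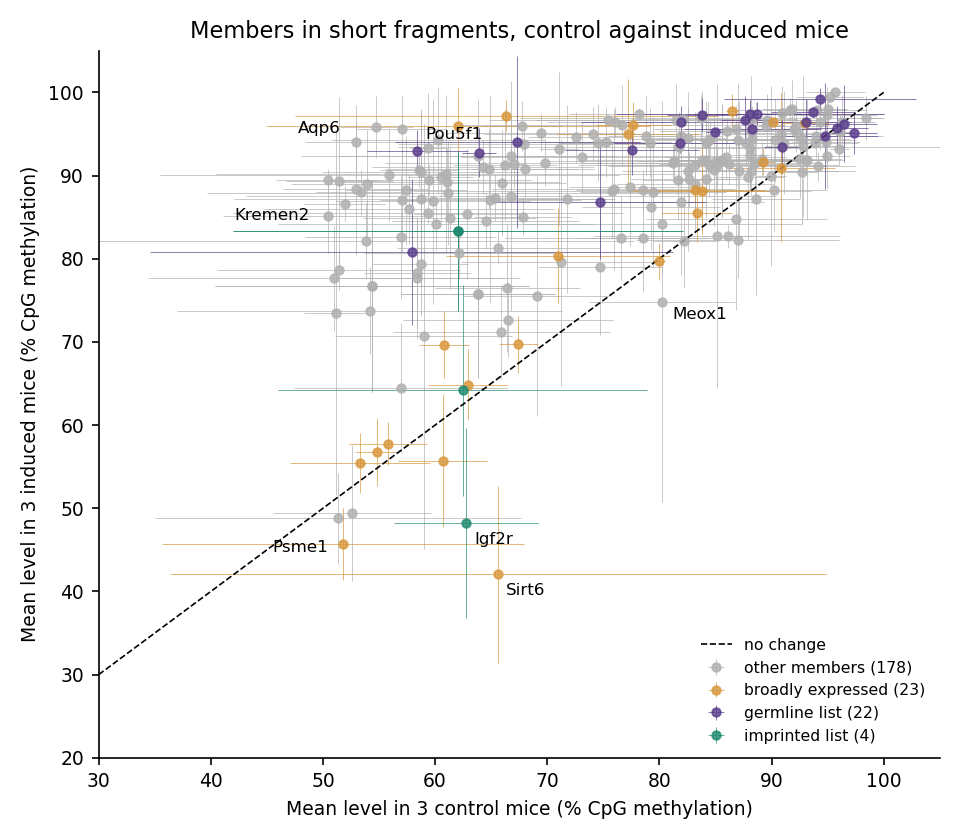
Mean short-fragment level of each of the 227 members in induced mice (vertical, percent) against control mice (horizontal, percent), with bars for the SD over 3 mice and a line of equality. Most points lie above the line and close on 100% toward the right, and a small group between 50% and 70% lies on or under the line.

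Members approached saturation and the gain shrank with the room left. Those at 50% to 60% in control mice (42 genes) went from 55.4% to 79.9%, a gain of 24.5 points. Gains were 18.3 points at 60% to 70% (46 genes), 14 at 70% to 80% (29 genes), 6.51 at 80% to 90% (68 genes) and 1.57 at 90% or more (42 genes). As a share of the distance left to 100%, however, the first 4 classes closed a similar part, 55.0%, 51.7%, 58.1% and 44.3%, and the last closed 24.3%. Genes under the threshold closed less than the first 4 classes, though mostly more than the last: 37.9% at 30% to 50%, 34.0% at 10% to 30%, 38.8% at 1% to 10% and 4.99% under 1%. These shares use the control values that also set the classes, so they carry no test.

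The number of members at 90% or more went from 42 in control to 131 (57.7%) in induced mice, and the number at 95% or more from 10 to 56. In each induced library 51.1%, 57.3% and 63.9% of members were at 90% or more, against 20.3%, 27.3% and 19.4% in the control libraries. The 42 members already at 90% or more in control mice differed little: 27 were higher and 15 lower in mean, and the lowest induced mean among them was 88.2% (Gpr17, an orphan receptor gene of the brain). At the other end 14 members were under 70% in induced mice, 5 of them under 50%.

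**Figure D3:**
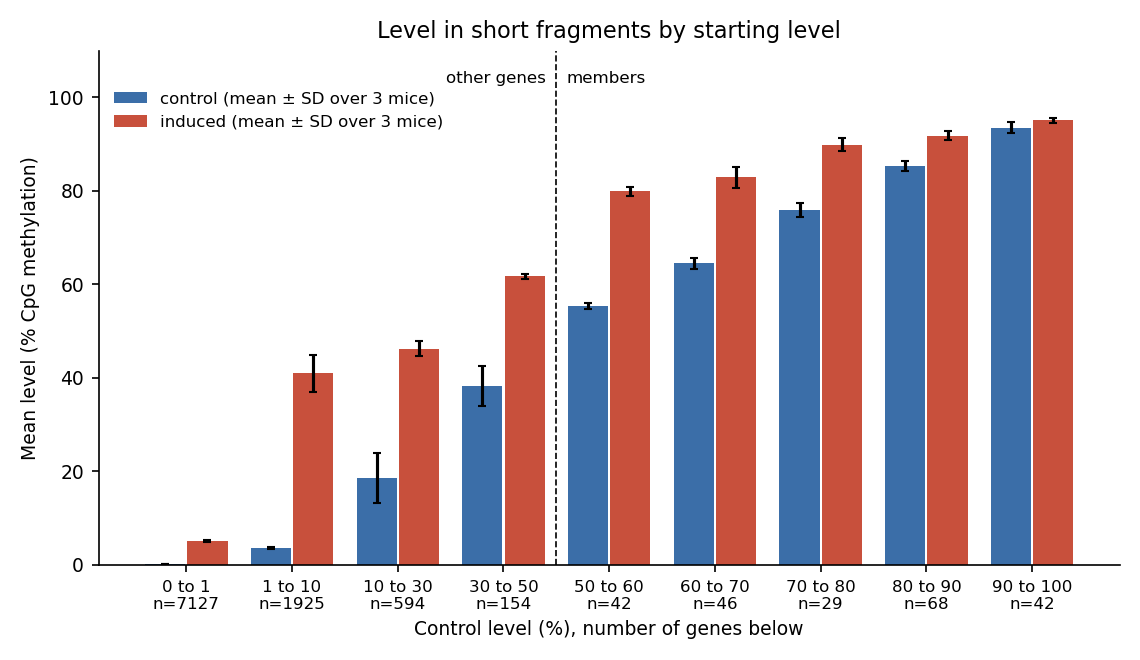
Mean short-fragment level in control and induced mice, in percent, for genes grouped by their control level, with the SD over 3 mice. Induced means climb from 79.9% to 95.1% across the member classes, and the distance between groups narrows from 24.5 to 1.57 points.

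Since the choice of genes used the control values, the level was also read in a control mouse that took no part in the choice. Genes picked from 2 control mice were lower in the left-out mouse by 2.11 points (mouse 1 left out, 231 genes), 0.797 points (mouse 2, 229 genes) and 1.29 points (mouse 3, 225 genes). Between 89.1% and 91.6% of them were still at 50% or more there. Their induced mean exceeded the left-out mouse by 14.5, 12.6 and 13.3 points. All 3 control values were at 50% or more in 190 members, while 37 had at least 1 value under it. Just inside the threshold were Hpn (50.4%), Kremen2 (50.5%), Slc6a19 (51.0%), B3gnt8 (51.1%) and Anks3 (51.3%). Just outside were the imprinted gene Mest (49.7%, 87.3% in induced mice), Espnl (49.6%, 76.4%), 1700012B09Rik (48.6%, 95.2%), Tarsl2 (48.2%, 53.0%) and the imprinted locus Gnas (48.1%, 66.1%).

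The 5 most methylated members in control mice were Zfp516, Sycp1, Tuba3b, Krt76 and Kbtbd10. Zfp516, a zinc finger gene, read 98.6%, 100% and 96.7% in control mice against 99.9%, 95.8% and 95% after induction. Sycp1, a component of the synaptonemal complex that joins chromosomes in meiosis, read 95%, 98.8% and 98.2% against 93.1%, 94.4% and 98.0%. Kbtbd10, a muscle gene, read 97.3%, 94.7% and 96.3% against 95%, 93.2% and 97.5%. In each of these the groups overlapped. Tuba3b (96.5% and 96.3% in mean), a testis tubulin, and Krt76 (96.3% and 96.4%), a keratin of oral epithelium, likewise stayed level. Cldn17, a claudin, was the only member at 100% in all 3 induced mice, from 95.7%, 98.3% and 93.0%.

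The 22 germline members averaged 83.7% ± 0.412 (SD, n = 3) in control and 94.5% ± 0.765 in induced mice, and 20 of them were at 90% or more after induction. Of these, 11 (50%) had all induced mice above all control mice, near the 48.9% of all members, and 4 were lower in mean. Sycp3, another synaptonemal complex component, was among the most reproducible, with 84.2%, 85.8% and 84.8% in control mice against 95.1%, 95.5% and 95.2% after induction. Ddx4, the germ-cell RNA helicase also called Vasa, read 71.7%, 86.5% and 87.6% against 96.9%, 94.5% and 98.0%. Mael, which acts in transposon silencing by small RNAs, read 86.4%, 95.2% and 84.7% against 98.6%, 96.0% and 97.8%. The groups did not touch in any of these 3 genes. The meiotic gene Spo11 went from 93.7% ± 3.75 to 97.6% ± 0.625, with overlapping mice.

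The largest gains among germline members were at lower control levels. The control level is subtracted in the gain and sets its ceiling, so this order is description only. Pou5f1, which encodes the pluripotency factor Oct4, read 62.9%, 58.4% and 54.0% in control mice against 90.2%, 93.2% and 95.4% after induction. Gm1564 read 65.0%, 64.6% and 62.2% against 93.4%, 89.6% and 95.3%. Prm1, a protamine that packs sperm DNA, read 58.6%, 79.6% and 63.8% against 82.1%, 100% and 100%. Every induced mouse was above every control mouse in all 3. Hormad2, a meiotic chromosome axis gene, read 67.0%, 31.4% and 75.4% against 80.1%, 89.9% and 72.4%, so control mouse 2 stood apart and the groups overlapped. A further 24 members known from germ cells but not on the list (grouped after their values were seen) went from 76.8% ± 1.83 to 88.2% ± 3.72. Their largest gain was that of Rbmxl2, a testis RNA-binding protein gene, from 57.4% ± 5.39 to 88.2% ± 6.57. Adad1, a testis gene, was among the most scattered, at 43.0%, 75.6% and 93.4% in induced mice.

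**Figure D4:**
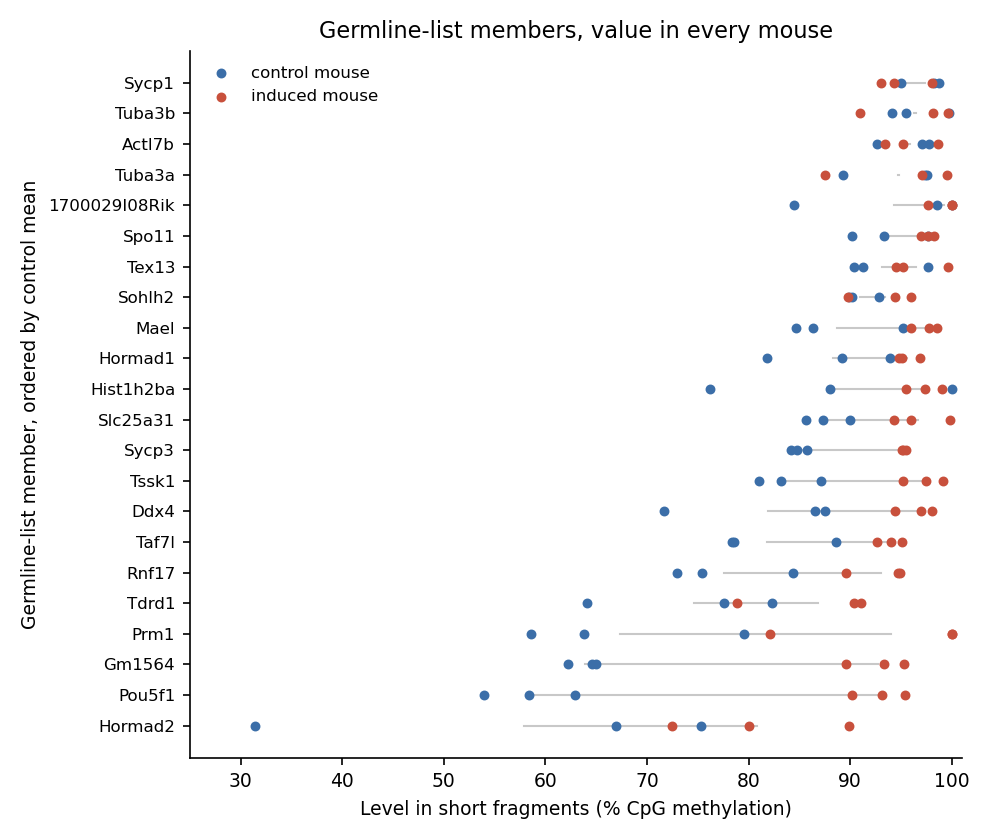
Short-fragment level, in percent, of the 22 germline members in each of the 3 control and 3 induced mice. The mean of the induced mice is 90% or more in 20 rows, and the widest spread among control mice is that of Hormad2.

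Promoter windows of germline members held more CpGs than those of other members, with a median of 16 (20 windows found) against 8 (164 windows). Motifs were searched on both strands of the 300-base windows. CACGTG, an E-box, was present in 8 of 20 germline members (40%: Sycp1, Mael, Hormad1, Slc25a31, Sycp3, Ddx4, Taf7l and Tdrd1), in 9.15% of other members and in 12% of all genes measured. TTCCCGC, an E2F-type motif, was present in 7 of 20 (35%), against 5.49% and 10.3%. In the whole RefSeq table of windows the shares were 7.15% and 4.6%. TGCCGC, a ZFP57 hexamer known from imprinted regions, was in none of the 20, in 12.2% of other members and in 24.4% of genes measured. The motifs were chosen from general knowledge, none of the 3 contains another, and a match is only a run of letters.

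Role groups for the remaining members were written from general knowledge after the values were seen. The 10 genes of developmental patterning had the widest gain, from 63.5% ± 3.76 to 89.5% ± 2.60 with a median of 31.1 points, and in 9 of 10 every induced mouse was above every control mouse (39.5% of all genes, 48.9% of members). Wfikkn2 and Wfikkn1 encode related secreted proteins that bind myostatin. Wfikkn2 read 54.3%, 58.2% and 51.8% in control mice against 100%, 94.7% and 92.7% after induction. Wfikkn1 read 50.5%, 58.0% and 51.8% against 86.5%, 91.1% and 86.4%. Kremen2, a receptor for the Wnt antagonists of the Dickkopf family, read 45.7%, 61.2% and 44.4% against 80.4%, 85.8% and 89.2%. In all 3 every induced mouse exceeded every control mouse by a wide margin. Hoxa2 and Hoxb3, homeobox genes that specify position along the body axis, went from 78.2% ± 6.28 to 97.4% ± 0.647 and from 55.9% ± 20.4 to 90.1% ± 5.53. The exception was the somite homeobox gene Meox1, at 74.7%, 78.7% and 87.4% against 47.1%, 91.1% and 86.2%, where induced mouse 1 stood apart.

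The 20 genes of organ metabolism and hormones went from 71.2% ± 1.32 to 89.9% ± 1.01, none was lower in mean, and 15 of 20 had all induced above all control mice (39.5% of all genes). Aqp6, a water channel of the kidney, read 50.1%, 50.6% and 58.3% in control mice against 90.5%, 92.8% and 99.0% after induction. Dpep1, a renal dipeptidase, read 61.6%, 55.1% and 54.4% against 94.2%, 100% and 92.5%. Hpn, which encodes the liver serine protease hepsin, read 47.7%, 55.7% and 47.9% against 90.5%, 88.0% and 89.9%. The induced mice of these genes lay together at the top of the scale. Lep, which encodes the fat hormone leptin, read 49.9%, 60.4% and 48.5% against 97.6%, 82.8% and 84.8%. Hsd3b7, a bile acid synthesis enzyme, went from 51.5% ± 4.77 to 89.3% ± 10.1. At the saturated end Agxt, a liver peroxisome enzyme, stayed at 93.8% ± 3.85 and 93.9% ± 0.222.

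Muscle genes (17) averaged 74.5% ± 1.76 and 88.3% ± 3.55, and genes of nerve and sense organs (20) 79.3% ± 1.62 and 90.1% ± 1.86. Hhatl, a gene of heart and skeletal muscle, was the muscle gene with the largest gain, from 51.9% ± 3.63 to 86.6% ± 2.08. Tnni3, cardiac troponin I, overlapped at 62.8%, 80.5% and 70.5% against 63.0%, 91.8% and 83.8%. Genes of epidermis and hair (7) averaged 76.5% ± 1.71 and 88.9% ± 2.67, among them Krt10 of the upper epidermis, from 68.0% ± 4.73 to 90.8% ± 3.39. Blood and immune genes (15) averaged 72.2% ± 3.59 and 85.4% ± 1.61. Cd27, a lymphocyte receptor, went from 74.6% ± 3.42 to 94.0% ± 4.6, and Lat, a T cell signalling adaptor, from 88.3% ± 8.70 to 94.4% ± 1.85. The 5 protocadherins, neuronal adhesion genes of clustered arrays, averaged 67.8% ± 9.25 and 82.6% ± 3.98, with Pcdhga11 at 46.0%, 72.1% and 82.3% in control mice.

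Of the role groups, broadly expressed genes had the smallest median gain, though they were mixed. These 23 went from 72.5% ± 0.818 to 78.1% ± 1.27 with a median gain of 2.33 points, and the median member closed 21.7% of its distance to full methylation, against 52.5% over all members. Of the 23, 9 reached 90% or more, beside 57.7% of all members. In 9 of the 23 all induced mice were above all control mice, near the 39.5% of all genes (48.9% of members). Gtf3c6, a subunit of a transcription factor of RNA polymerase III, gained most, from 73.9%, 42.4% and 69.8% to 100%, 91.0% and 96.8%. Of 88 members under 70% in control mice, 9 stayed within 5 points: Anks3, EG633640, Smpd1, Zbtb22, Tagln2, Tjap1, Zrsr1, Ap1g2 and Tapbp. Zbtb22, a zinc finger gene, read 52.8%, 55.1% and 56.4% in control mice against 52.1%, 59.5% and 58.8% after induction. Its neighbour Tapbp, which loads peptides onto MHC class I, read 65.4%, 68.2% and 68.7% against 65.8%, 71.9% and 71.5%. Tagln2, an actin-binding protein gene, read 55.4%, 52.6% and 59.5% against 57.9%, 60.2% and 55.1%. These levels were tight among mice and did not move apart. Smpd1, the acid sphingomyelinase of lysosomes, went from 53.3% ± 6.23 to 55.5% ± 3.58, and Ap1g2, an adaptor of vesicle transport, from 62.9% ± 3.57 to 64.9% ± 4.30. The 14 members under 70% in induced mice had a median of 18 CpGs per window (13 found), against 8.25 for all members.

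The largest differences downward were few and uneven. Sirt6, a chromatin deacylase, read 99.1%, 45.5% and 52.2% in control mice against 30%, 50% and 46.1% after induction, and control mouse 1 stood far above the other 5. Psme1, a proteasome activator subunit, read 37.9%, 69.5% and 48.0% against 47.2%, 49.1% and 40.8%, with overlap. Tjap1, a tight junction protein gene, read 65.0%, 57.3% and 59.7% against 64.8%, 52.5% and 49.8%. With Igf2r and Meox1 these were the 5 largest differences downward, and the groups overlapped in each.

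Imprinted members stood near the middle of the scale in control mice and none had an induced mean of 90%. Igf2r, expressed from the maternal allele in mouse tissues and encoding a receptor that clears the growth factor IGF2, read 65.7%, 55.4% and 67.2% in control mice against 60.8%, 38.4% and 45.4% after induction. Peg3 and its neighbour Usp29, paternally expressed genes that share a promoter region and carry identical values in every library, read 78.5%, 67.9% and 39.7% against 72.4%, 86.9% and 90.5%. Zrsr1, another paternally expressed gene, read 45.0%, 77.7% and 64.6% against 54.0%, 78.3% and 60.2%. All of them overlapped between groups, and the control mice were widely spread in Peg3, Usp29 and Zrsr1.

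Identical values also joined Ccr10 with Cntnap1, Cryab with Hspb2, EG208426 with Schip1 and Hist1h2aa with Hist1h2ba, so the 227 genes stand for 222 distinct sets of values. Neighbouring members need not share a level. Eng (85.1%) and Ak1 (58.7%) are adjacent, as are 1110028A07Rik (87.1%) and Psme1 (51.8%). After Sirt6 (SD 29.2 points) the widest spread among control mice was that of Mfrp, a retinal gene at 92.1%, 100% and 53.1%, Gdf3, a growth factor of early embryos at 26.3%, 66.0% and 69.2%, 1700028K03Rik at 45.8%, 92.4% and 62.1%, and Hormad2. Among induced mice Adad1 (SD 25.5), Meox1 (24.1), B3gnt8 (21.9), Igbp1b (18.3) and Tnni3 (14.8) varied most.

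The long-fragment libraries gave readings that did not enter the choice, although they came from the same 6 mice. Only 52 members (22.9%) had values in all 6 of them, against 52.9% of all short-fragment genes. Another 37 were in some long-fragment libraries and 138 in none. The 52 averaged 59.4% ± 1.97 (SD, n = 3) in control and 72.1% ± 1.10 in induced mice. Their median gain was 6.96 points against 0.943 over all genes. Means over all genes listed were 5.81%, 5.76% and 6.52% in control and 19.5%, 19.8% and 22.0% in induced long-fragment libraries. Here too the medians do not show a larger average gain of the members. By limma with Benjamini-Hochberg adjustment over 6127 genes, 11 members (21.2%) rose, against 23.2% of all genes. By the same fit 0 fell, against 0.0163%, and 41 were not called. An unadjusted p under 0.05 was found in 15, all 15 of them higher. The share of all genes with such a p was not counted, so the 15 have no background beside them. In 20 members (38.5%) every induced mouse was above every control mouse, against 38.2% of genes, and in 1 (Rccd1) below, against 0.277%. The members' shares were thus near the background. Without the long-fragment library of control mouse 2 the number of members that rose was 6, and over all genes it was 882 in place of 1421.

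Kremen2 rose most. It read 22.4%, 32.9% and 26.5% in control mice against 84.0%, 92.8% and 89.9% after induction, a rise of 61.6 points (SE 3.82, adjusted p = 0.00123 by limma). Hpn read 36.6%, 37.0% and 33.6% against 99.6%, 80.1% and 95.9%, a rise of 56.2 points (SE 5.76, adjusted p = 0.00414 by limma). The groups were far apart in both genes, which had also gained in the short fragments. Myl7, a myosin light chain of the heart atrium, rose by 45.6 points (SE 4.68, adjusted p = 0.00417 by limma), from 45.1%, 49.8% and 39.4% to 83.3%, 91.1% and 96.7%. Shank2, a scaffold of synapses, rose by 19.3 points to 96.5% (adjusted p = 0.00469 by limma). Hoxa2 rose by 18.8 points to 98.5% (adjusted p = 0.0110 by limma). In these 5 genes the call held whichever of the 6 libraries was left out. With the replicate number added to the fit as a block, Kremen2 and Shank2 kept the call (adjusted p = 0.0153 and 0.0485 by limma). Hpn, Myl7 and Hoxa2 then lost it (0.0508, 0.0577 and 0.0741).

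The calls of the other 6 rises did not hold in every omission of a library. Tacc2, a centrosome-associated gene, rose by 15.7 points to 97.0%, with an adjusted p of 0.0102 by limma and 0.0521 without control mouse 2. Ifi30, a lysosomal thiol reductase used in antigen presentation, rose by 27.3 points, with 0.0125 by limma and up to 0.0618 without control mouse 1 or 2, where the rise was 24.0 to 30.5 points over the 6 omissions. Cmtm5 rose by 37.5 points to 97.1%, with 0.0138 by limma and up to 0.0662 without control mouse 2 or induced mouse 2 (rise 32.7 to 42.9 points). Ldoc1l rose by 38.4 points to 64.6%, with 0.0154 by limma, and kept its call in 2 of 6 omissions (rise 35.3 to 44.1 points). Gm1564 rose by 23.7 points to 89.0% (0.0339 by limma) and Rbmxl2 by 28.9 points to 89.2% (0.0365), each keeping its call in 1 of 6, with rises of 20.6 to 28.7 and 23.3 to 33.8 points. The other 5 germline members with long values were not called: Sycp3, Slc25a31, Taf7l, Sohlh2 and Mael stood at 87.9% to 95.5% in control mice already.

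Levels near the ceiling were also more common in induced long fragments. Members at 90% or more numbered 10 in control and 25 in induced mice. Among 15 members with a long-fragment control level of 50% to 80%, 5 rose and the median gain was 18.8 points, beside 17.0% of all 88 genes at that level with a median of 16.7. Among 19 at 80% or more, 1 rose and the median gain was 4.32 points, beside 8% of all 75 genes and 4.73. These classes use long-fragment control values, which also enter the gain. Classed by their short-fragment control level instead, the members gained 20.2 points in long fragments at 50% to 60% (8 genes), 14.7 at 60% to 70% (12 genes), 21.3 at 70% to 80% (10 genes), 3.97 at 80% to 90% (15 genes) and 7 at 90% or more (7 genes). They closed 38.7%, 26.4%, 46.1%, 13% and 45.7% of the distance to full methylation, with no steady order.

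**Figure D5:**
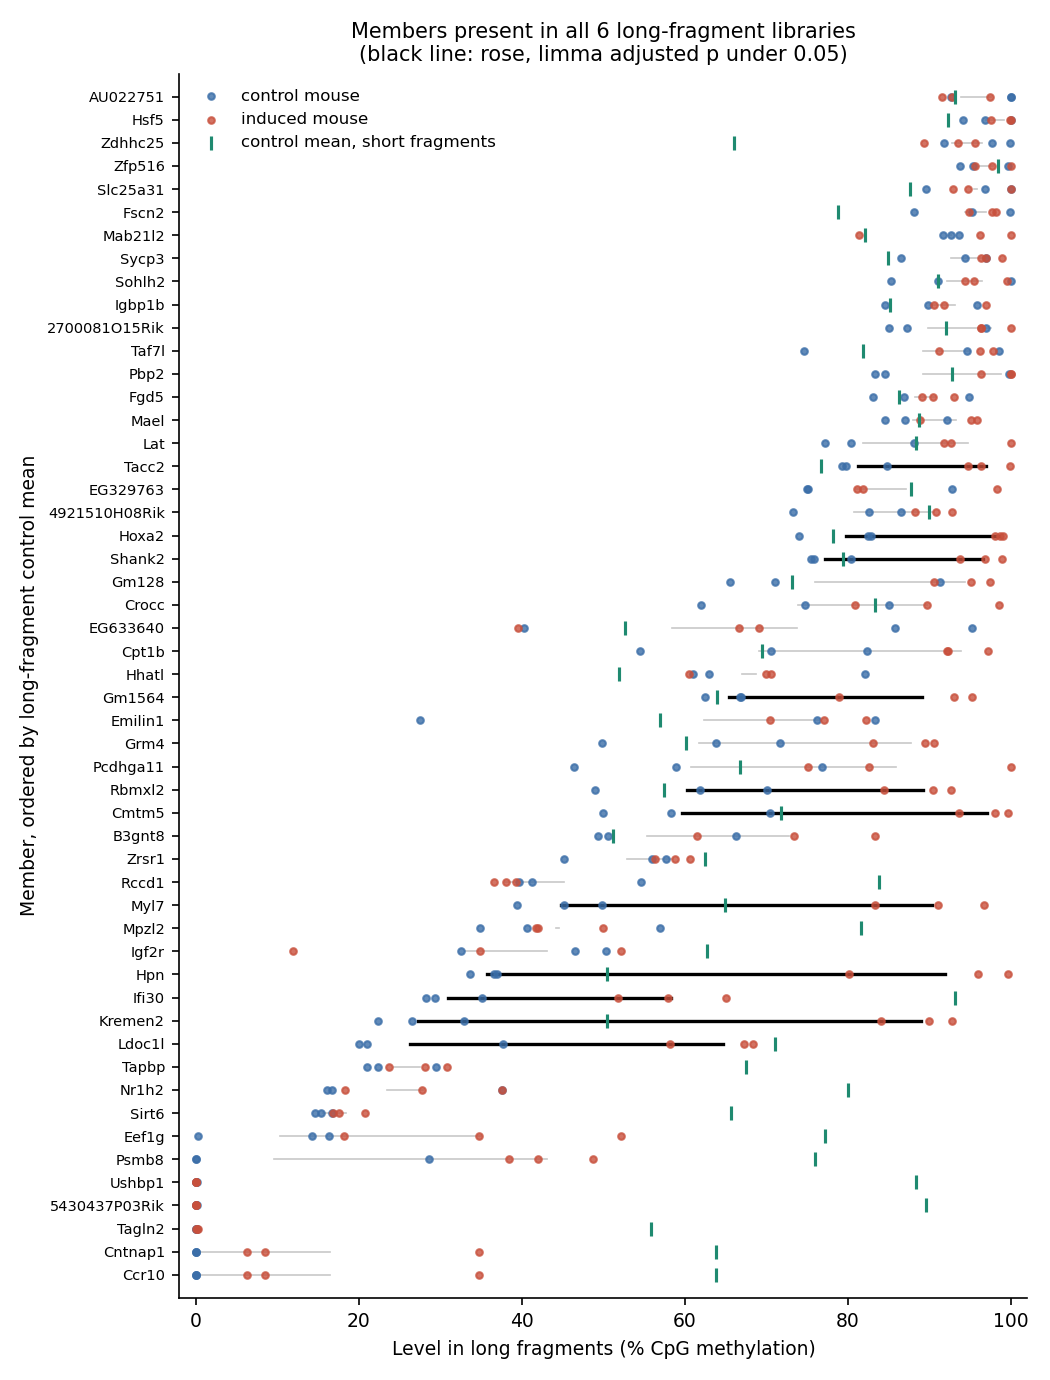
Long-fragment level, in percent, of the 52 members with values in all 6 libraries, for each of 3 control and 3 induced mice, with a green mark for the short-fragment control mean and a line joining the group means, black where limma called a rise. The 11 genes that rose include Kremen2 and Hpn, and genes at the low end carry long-fragment levels far under their short-fragment mark.

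A high level in the short fragments did not always extend to the long fragments of the same promoter. Of the 52 members, 28 had control means within 10 points of each other in the 2 fractions, 14 were more than 30 points lower in the long fragments and 5 more than 10 points higher. The long-fragment control mean was under 50% in 18 members, and under 10% in 6. Pearson's r between the control means was 0.390 across the 52 genes, given as a description because both values come from the same mice.

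The contrast was sharpest at Ushbp1 and its neighbour 5430437P03Rik. Their short fragments stood at 88.3% and 89.5% in control mice and at 96.8% and 96.0% after induction, while their long fragments, identical for the pair, read 0.16%, 0% and 0% in control mice against 0%, 0.04% and 0.04% after induction. Tagln2 was similar, with 55.8% in short fragments and long values from 0% to 0.32% over all 6 mice. Ccr10 and Cntnap1 read 0% in the long fragments of all 3 control mice and 6.25%, 34.7% and 8.43% in induced mice, which was not called (adjusted p = 0.327 by limma). Ifi30 combined a full short fragment (93.2% in control, 91.9% in induced mice) with a long fragment that rose from 30.9% ± 3.69 to 58.2% ± 6.6. Psmb8, an immunoproteasome subunit, went from 9.54% ± 16.5 to 43.0% ± 5.25 in long fragments (adjusted p = 0.0793 by limma, 0.0148 without control mouse 1), with 28.6% in control mouse 1 and nearly 0 in the others.

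Of the members without a short-fragment gain, Ifi30 rose in the long fragments as given above, and the others named here were not called. Sirt6 read 16.7%, 14.6% and 15.4% in control mice against 17.6%, 20.8% and 16.8% after induction (adjusted p = 0.248 by limma), and its high short-fragment reading in control mouse 1 had no counterpart there. Tapbp stood at 24.3% ± 4.52 and 27.5% ± 3.58. Igf2r read 50.3%, 46.5% and 32.5% against 11.9%, 34.8% and 52.2%, a difference of -10.1 points (SE 12.2, adjusted p = 0.633 by limma) that was 0.42 without induced mouse 1. Zrsr1 stood at 52.9% ± 6.82 and 58.6% ± 2.18 (adjusted p = 0.475 by limma). For these genes the test found no change, which does not show that there was none. Hhatl differed between the fractions in the other way, with a gain of 34.7 points in short fragments and 82.1%, 62.9% and 61.0% against 69.9%, 60.5% and 70.5% in long fragments.

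Across the series, libraries listed 10358 to 10838 genes in short and 7278 to 8108 in long fragments. Genes at 50% or more made up 3.04% to 3.43% of each control and 17.1% to 20.2% of each induced short-fragment library.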

How the data were processed

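Promoter methylation was measured in 12 libraries of colon epithelium from 3 Dnmt3b-induced and 3 control mice, grouped by the labels' treatment and fragment size. Per the labels' protocols, MspI digestion and gel size selection preceded bisulfite treatment, PCR and Illumina sequencing. The deposited values are mean CpG methylation fractions per gene and per promoter, from 0 to 1, per the file headers, and were multiplied to percent. Not given in the sources used here are the build, aligner, averaging window, coverage minimum and conversion rate. With no read counts, depth and counting error are unknown, and shallow and deep genes weigh alike. Unconverted cytosine and hydroxymethylcytosine are also read as methylation.

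Members had a control mean of 50% or more in short fragments and a value in all 6 libraries. The 6127 genes in all 6 long-fragment libraries were fitted with limma 3.58.1 (percent levels, lmFit, then eBayes, R 4.3.3), induced against control, with Benjamini-Hochberg adjustment over those genes and a threshold of 0.05. The fit was tested on simulated data. A planned count of limma calls among members in short fragments is not given, because the control values chose the members. The mice are separate animals. Python 3.11.15, numpy 2.4.6, pandas 2.3.3 and matplotlib 3.10.9 were used for summaries and figures. The deposited NCBI gene ID matched RefSeq for 225 of 227 members, and windows and sequences come from RefSeq tables of GRCm38.p6.

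Members and gene lists were chosen with earlier results of these data known. Genes named by rule were the extremes of control level, gain, fall and spread in short fragments, the 5 genes on each side of the threshold, the 10 largest rises in long fragments, the 5 members lowest in long-fragment control mice and up to 4 members per list. Other members named, and the role groups, were chosen after their values were seen. Other thresholds, scales, filters, left-out libraries and a replicate block were tried as alternatives.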

Additional observations from a re-analysis of the deposited data

How the results depend on the processing

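No called result reversed under the alternatives run. Of the 89 alternatives of the main counts, means and shares, 68 stayed close to the main value. A further 12 means or shares moved by more than the SD over mice, 8 counts were markedly lower and 1 was markedly higher. Every mean gain stayed positive. Among named members that were not called, the long-fragment difference changed sign in 5. Igf2r stood at 0.42 points without induced mouse 1, Hhatl at 5.04 without control mouse 1 and 1.56 without induced mouse 2, and Slc25a31 at -2.54 without control mouse 3, -1.67 without induced mouse 3 and below 0 on a logit scale. Ushbp1 and 5430437P03Rik moved between levels near 0. At a control mean of 40%, 60% and 70% the mean short-fragment gain was 14.8, 9.50 and 6.58 points in place of 12.3, and the share of members at 90% or more in induced mice was 47.9%, 66.5% and 76.3% in place of 57.7%. At 70% there were 139 members, of which 6 of 32 rose in long fragments with a mean gain of 10.1 points. At 40% 20 of 75 rose, with a mean gain of 14.9. With all 3 control mice at 50% or more the short gain was 10.41 points and the share at 90% or more 66.3%. With members chosen from control mice 2 and 3 the gain over mouse 1 was 14.5 points. The median level over members in place of the mean gave a long-fragment difference of 20.95 points in place of 12.7.

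Leaving out 1 library in turn gave 6 to 11 members that rose in long fragments and 882 to 1527 rises over all long-fragment genes in place of 1421. Of these, each omission of a control library (900, 882 and 895) lowered the last count by over 1.5 times. Each omission of an induced library gave 1527, 1316 and 1376. The reason for this difference was not tested. Ccr10 and Cntnap1 passed in long fragments on a logit scale (adjusted p = 0.0235 by limma) and without induced mouse 2 (0.0122), and Lat passed with genes under a mean of 1% left out (0.0402). With those genes left out 15 members rose in place of 11, and 1633 genes in place of 1421, so the count over all genes rose too. Psmb8 (0.0183), Grm4 (0.0127) and Cpt1b (0.0294) were among the 15. Psmb8 also passed without control mouse 1 (0.0148), and Grm4 (0.0270) and Cpt1b (0.0442) on the logit scale. Gm1564 did not pass on the logit scale (0.0624), nor did Tacc2 (0.0520).

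Replicate numbers recur in both groups. Correlations of same-numbered deviations across genes ran from -0.05 to 0.07 in short and from 0.00 to 0.04 in long fragments. Those of differently numbered deviations ran from -0.08 to 0.08 in short and from -0.03 to 0.01 in long fragments. Correlations of this kind cannot decide whether the numbers pair the mice. With the replicate block 4 members rose in long fragments in place of 11 and 651 genes in place of 1421. Of the 11, only Kremen2, Ifi30 and Shank2 kept the call (adjusted p = 0.0153, 0.0380 and 0.0485 by limma). The remaining member was EG329763 (0.0268), which was not called in the main fit (0.647).

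Depth is unknown, so the counting error of a level near 0% or 100% cannot be given.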

Other observations

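Beyond the members, 988 genes had short-fragment values in at least 1 control library but not in all 6 libraries, and 150 of them (15.2%) had a mean of 50% or more over the control values listed, against 2.26% of the genes in all 6. In the long fragments 163 genes stood at 50% or more in control mice. Of these, 80 had values in all 6 short-fragment libraries and 34 were members.

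Of the 227 members, 14 had more than 1 promoter listed, and in 0 of them did the promoters differ by over 20 points in control mean.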
